A study of Homo sapiens with 12 samples.

Results

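The immune checkpoint and adhesion ligands examined here are 10 genes whose products sit on the cell surface and are read by T cells, natural killer (NK) cells or macrophages: CD274, PDCD1LG2, CD276, CD47, NT5E, VSIR, PVR, NECTIN2, CD70 and B2M. They were taken by gene symbol from a table of raw read counts that holds 44659 genes, and all 10 symbols were found in it. The RNA came from A375, an established human skin melanoma line, and the sample labels call it cytoplasmic RNA in one field and total RNA in another. In one experiment, 3 libraries came from cells given MAPKi (500 nM of the BRAF inhibitor vemurafenib plus 500 nM of the MEK inhibitor cobimetinib) for 24 h and 3 from cells given DMSO, all in medium with 2 mM glutamine. In the other, 3 came from cells kept in glutamine-free medium (Gln-depleted) for 24 h and 3 from cells in control medium with 2 mM glutamine (CTRL medium). A375 is a single line without immune cells, so every value below is a level of RNA in tumour cells, and nothing was measured of the cells that would read these ligands. The labels number the libraries of each group 1 to 3 and place the DMSO and MAPKi libraries in sequencing batch 2 and the other libraries in sequencing batch 1. The Gln depletion experiment spans 2 experimental batches, with replicate 1 of each group in batch 1 and replicates 2 and 3 in batch 2. The labels do not say whether libraries of a group came from separate cultures, and p-values then measure only the spread between these libraries.

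Library depth was 31056296 to 40071368 counted reads, with a median of 35748567. Replicates differed more in the Gln depletion experiment, where the chi-square per degree of freedom between libraries of a group was 36.24 to 173.92, than in the MAPKi experiment, where it was 4.47 to 14.39. In bulk RNA, fewer cells that express a gene and less of its RNA per cell cannot be told apart. Levels are given as CPM, the reads on a gene scaled to a common library size with TMM factors within each experiment, as mean ± SD over 3 libraries. Fold changes are on the log2 scale, with the standard error (SE). Each adjusted p is Benjamini-Hochberg corrected over all protein-coding genes tested in that experiment and comes from the quasi-likelihood test of edgeR. Genes whose adjusted p did not exceed 0.05 were called changed, and those that also passed a test against a 1.5-fold change were called up- or downregulated. In the Gln depletion experiment, libraries with the same replicate number deviated together, so values from a fit with the replicate number as a block are given where they change a call.

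T cells and NK cells are switched on or held back by pairs of receptors and ligands. PD-L1 (CD274) and PD-L2 (PDCD1LG2) engage the inhibitory receptor PD-1, PVR and NECTIN2 both bind the activating receptor DNAM-1 (CD226) and the inhibitory receptor TIGIT, and CD47 signals through SIRPA on macrophages to block engulfment. B2M is the invariant light chain without which MHC class I molecules do not reach the surface, and NT5E (CD73) is an enzyme that makes the immunosuppressive nucleoside adenosine from AMP.

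Of the 10 genes, 8 had enough reads to be tested. PDCD1LG2 had 35 reads over the 12 libraries, between 0 and 9 in each, and VSIR, which encodes the checkpoint molecule VISTA, had 1 read in MAPKi replicate 1 and 0 in the other 11. A limit of 3 reads corresponds to 0.0749 to 0.0966 CPM in these libraries, covering counting error only. Both genes fell below the mean normalized count of 10 required in the main fits and were not compared between groups there. In MAPKi-treated cells, 4 of the 8 tested genes were higher (CD47, B2M, NECTIN2 and CD70) and 3 lower (NT5E, PVR and CD276), while CD274 did not pass. Of all 12593 genes tested in that experiment, 77.9% changed (39.1% higher and 38.9% lower), so 7 of 8 lies close to the share of genes in general. CD47 and B2M were upregulated and NT5E, PVR and CD276 downregulated past the 1.5-fold threshold, where 35.5% of all genes passed (17.1% up and 18.4% down). DESeq2 put 4 past 1.5-fold, without B2M (adjusted p = 0.388), where 3765 of 12592 genes passed. EdgeR's fit of all 12 libraries put 3, without B2M (adjusted p = 0.0939) and CD276 (adjusted p = 0.0792), where 3029 of 12627 genes passed. That fit takes the spread of a gene from both experiments. In Gln-depleted cells, NT5E and PVR were higher and CD276 and CD70 lower, which is 4 of 8 where 17.7% of 12512 genes changed (9.73% higher and 7.94% lower). In edgeR's test against 1.5-fold 0 of the 8 passed, 2 had an unadjusted p under 0.05, and 5.43% of all genes passed (3.51% up and 1.92% down). DESeq2 also gave 0, with 1 unadjusted, where 631 of 12504 genes passed. With the replicate block, CD274 was called higher as well, and NT5E and CD70 passed 1.5-fold. In that fit 6066 of the 12512 genes changed (3199 higher and 2867 lower) and 2051 passed 1.5-fold. These figures over all genes, without and with the block, are also the background for the list counts below.

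**Figure D1:**
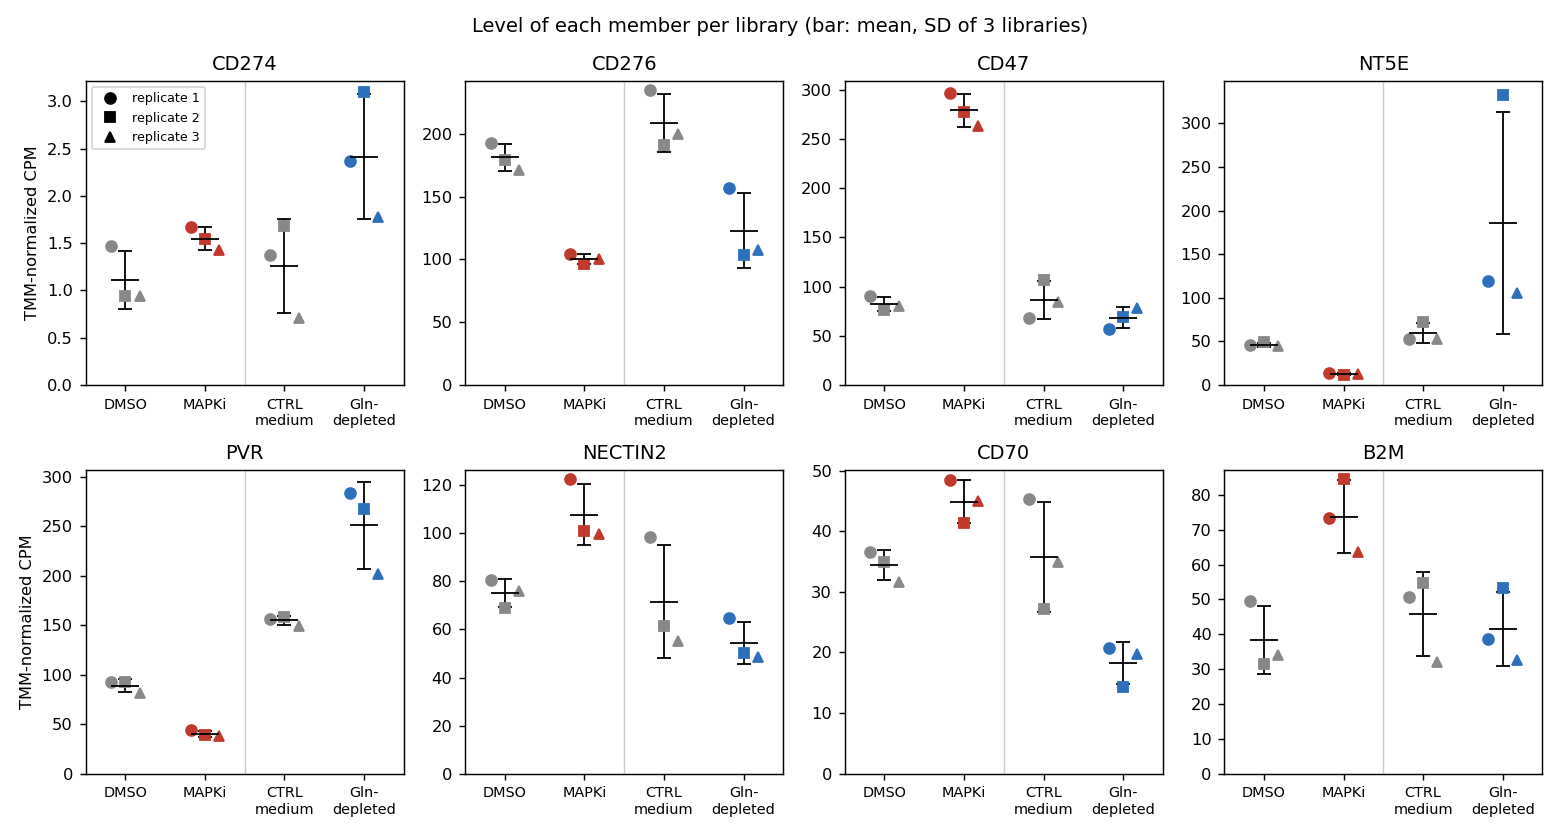
Level of each of the 8 tested genes in the 12 libraries (TMM-normalized CPM, linear axis from 0), with replicates 1, 2 and 3 as circles, squares and triangles, the mean as a horizontal bar and the SD of 3 libraries as whiskers. CD47 lies at 263 to 297 CPM in the MAPKi libraries and at 76.6 to 90.2 in the DMSO libraries, and a single Gln-depleted library stands at 332 CPM for NT5E.

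Levels can be compared between genes only per length, here as CPM per kb of annotated exon. In DMSO, CD276 was the most abundant of the 10 at 33.1 ± 1.98 CPM per kb. CD70 (22.5 ± 1.66) and NECTIN2 (20.1 ± 1.58) followed and overlapped each other. B2M (12.3 ± 3.10), NT5E (10.2 ± 0.519) and CD47 (10.0 ± 0.858) also overlapped, and PVR lay lower at 8.54 ± 0.610. CD274 was far below these at 0.271 ± 0.0742 CPM per kb. After MAPKi the order was different. CD47 had the highest mean at 33.9 ± 2.04 CPM per kb, above every CD70 library (29.3 ± 2.32) but overlapping NECTIN2 (28.8 ± 3.41), and CD70 and NECTIN2 did not separate. B2M followed at 23.6 ± 3.35. CD276 was at 18.3 ± 0.753, and PVR (3.87 ± 0.296) and NT5E (2.85 ± 0.230) lay at the lower end, above CD274 only among the tested genes. In CTRL medium the order was again led by CD276 (38.1 ± 4.24 CPM per kb). In Gln-depleted cells NT5E had the highest mean, 41.0, with 1 library at 73.3 and the others at 26.4 and 23.4, and these 2 overlapped PVR (24.1 ± 4.18) and CD276 (22.4 ± 5.44). The lengths count every annotated exon of a gene, also exons that A375 cells may not use, and reads on PVR are spread over 10427 exon bases against 1530 for CD70. B2M has a further copy in the table, with 1057 reads against 21243 on the gene, which its level leaves out. How reads shared between the copies were counted is not known, so the place of B2M in these orders is uncertain.

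**Figure D2:**
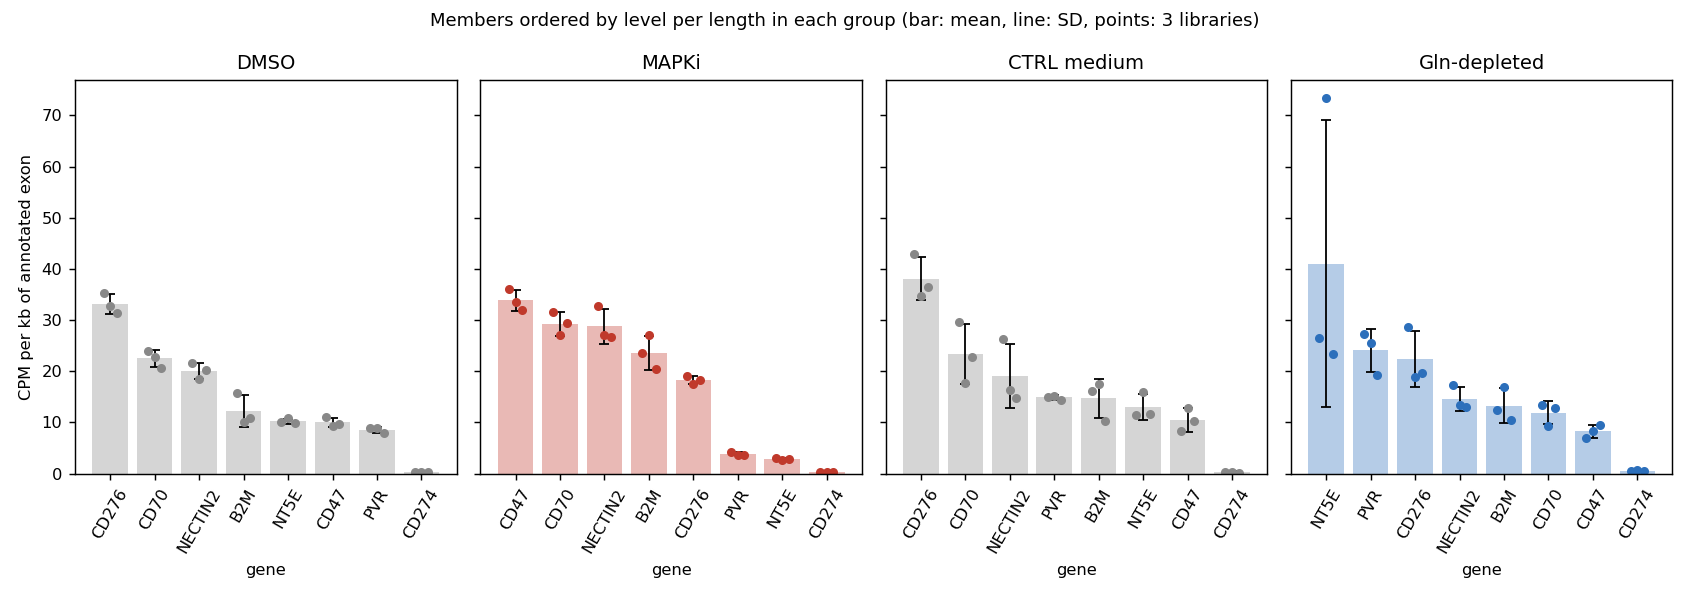
The 8 tested genes ordered by their mean level per length in each group (CPM per kb of annotated exon, linear axis from 0; bars are means, lines the SD and points the 3 libraries). CD276 has the highest mean in DMSO and CTRL medium and CD47 after MAPKi, while NT5E and PVR lie just above CD274 after MAPKi and have the highest means in Gln-depleted cells.

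CD274 (chromosome 9, 5450503 to 5470566, plus strand, GRCh38) encodes PD-L1. It was counted at 1.47, 0.939 and 0.938 CPM in the DMSO libraries and at 1.67, 1.55 and 1.42 in the MAPKi libraries, or 33 to 48 and 49 to 58 reads. The highest DMSO library lay above the lowest MAPKi library. The log2 fold change of 0.48 (SE 0.23, adjusted p = 0.089, edgeR) did not pass, with a 95% interval from -0.05 to 1.01, and without DMSO replicate 1 it was 0.73 (adjusted p = 0.0173). In the Gln depletion experiment the libraries did not overlap, at 1.38, 1.68 and 0.713 CPM in CTRL medium and 2.37, 3.10 and 1.77 in Gln-depleted cells. The log2 fold change there was 0.94 (SE 0.41, adjusted p = 0.145, 95% interval 0.00 to 1.89), and the ratio within a replicate number was 1.72, 1.84 and 2.49. With the replicate block CD274 was called higher, at 0.98 (SE 0.28, adjusted p = 0.0226).

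CD276 (B7-H3, chromosome 15, 73683966 to 73714514, plus strand) is a B7-family molecule found on many tumours. It was the only member called lower in both experiments. Its level was 193, 179 and 172 CPM in DMSO and 105, 96.5 and 100.4 after MAPKi, with no overlap, a log2 fold change of -0.85 (SE 0.06, adjusted p = 5.91e-07). In CTRL medium it was 235, 191 and 200.1 CPM and in Gln-depleted cells 157, 104 and 108, again with no overlap, at -0.76 (SE 0.22, adjusted p = 0.0480). Leaving out single libraries of the Gln depletion experiment gave -0.98 to -0.66 (adjusted p from 0.0171 to 0.171), and the call was kept only without Gln-depleted replicate 1. CD276 was at -0.78 (SE 0.12, adjusted p = 0.00182) with the replicate block and at -0.89 (adjusted p = 0.00589) within experimental batch 2. The MAPKi effect minus the Gln depletion effect was -0.04, with a 95% interval from -0.53 to 0.46.

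CD47 (chromosome 3, 108043091 to 108091862, minus strand), the signal against engulfment, rose the most of the 8 tested genes after MAPKi. It was at 90.2, 76.6 and 80.2 CPM in DMSO and 297, 277 and 263 in MAPKi, 3.39-fold (log2 fold change 1.76, SE 0.07, adjusted p = 2.50e-08). The lowest MAPKi library was far above the highest DMSO library. In CTRL medium CD47 was at 68.6, 106 and 84.4 CPM and in Gln-depleted cells at 57.3, 69.3 and 78.2, which overlap (-0.34, SE 0.23, adjusted p = 0.321). SIRPA, its receptor on macrophages, was itself counted in A375 cells, at 82.7 to 102 CPM in DMSO and 221 to 283 in MAPKi (log2 fold change 1.42, SE 0.11, adjusted p = 1.67e-06), and at 94.8 ± 5.87 in CTRL medium and 52.0 ± 8.24 in Gln-depleted cells (-0.87, SE 0.19, adjusted p = 0.0208). QPCTL, the enzyme that modifies CD47 so that SIRPA can bind it, had a log2 difference of -0.05 after MAPKi (adjusted p = 0.534) and -0.81 after Gln depletion (adjusted p = 0.0560, and 0.00813 with the replicate block).

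NT5E (CD73, chromosome 6, 85449584 to 85495791, plus strand) fell the most of the 8 tested genes after MAPKi. It was at 45.4, 49.0 and 44.6 CPM in DMSO and 14.1, 12.1 and 12.6 in MAPKi, a log2 fold change of -1.84 (SE 0.07, adjusted p = 1.60e-08), or 3.58-fold lower. In CTRL medium it was at 52.3, 72.5 and 53.0 CPM, and in Gln-depleted cells at 120, 332 and 106. All 3 Gln-depleted libraries were above all CTRL medium libraries, but replicate 2 stood apart from the others. The log2 fold change was 1.65 (SE 0.43, adjusted p = 0.0352). Without Gln-depleted replicate 2 it was 0.93 (adjusted p = 0.0690), and the call was also lost without any one of the 3 CTRL medium libraries (1.57 to 1.82, adjusted p from 0.0714 to 0.105). Within replicate numbers, the ratio was 2.29, 4.58 and 2.00, and with the replicate block NT5E was at 1.46 (SE 0.23, adjusted p = 0.00188) and upregulated past 1.5-fold (adjusted p = 0.0115). Within experimental batch 2 alone the log2 fold change was 1.80 (adjusted p = 0.0302), and batch 1 holds 1 library of each group.

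PVR (CD155, chromosome 19, 44643798 to 44666162, plus strand) is the ligand of DNAM-1, TIGIT and CD96. Like NT5E it was lower after MAPKi and higher after Gln depletion. It was at 93.1, 92.4 and 81.8 CPM in DMSO and 43.9, 38.8 and 38.2 in MAPKi (-1.14, SE 0.07, adjusted p = 3.33e-07). It was at 157, 159 and 150 CPM in CTRL medium and 284, 267 and 202 in Gln-depleted cells (0.69, SE 0.19, adjusted p = 0.0430). The groups did not overlap in either experiment. The Gln depletion call was lost in 5 of 6 fits with a library left out (0.60 to 0.80, adjusted p from 0.0447 to 0.144) and was 0.68 (adjusted p = 0.00393) with the replicate block and 0.60 (adjusted p = 0.0395) within experimental batch 2. Control levels were 89.1 ± 6.36 CPM in DMSO and 155 ± 4.73 in CTRL medium, which were sequenced and scaled separately and not tested against each other. Of PVR's exon bases, 121 also belong to CEACAM19, on which 78 reads were counted in all, and 2028 to an unnamed transcript that is not in the table.

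The annotated start regions of NT5E and PVR are shown because both genes were lower after MAPKi and higher after Gln depletion. Each is 300 bases, 5′ to 3′ on the gene's own strand, from RefSeq (GRCh38.p14), NT5E at chr6:85449833-85450132 and PVR at chr19:44643660-44643959, both on the plus strand, with the first transcribed base in capitals.
NT5E: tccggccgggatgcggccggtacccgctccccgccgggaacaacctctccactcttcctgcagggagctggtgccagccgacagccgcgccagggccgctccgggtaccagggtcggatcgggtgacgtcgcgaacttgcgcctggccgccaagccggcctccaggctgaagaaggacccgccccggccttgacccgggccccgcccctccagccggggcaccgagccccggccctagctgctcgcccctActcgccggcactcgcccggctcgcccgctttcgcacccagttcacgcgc
PVR: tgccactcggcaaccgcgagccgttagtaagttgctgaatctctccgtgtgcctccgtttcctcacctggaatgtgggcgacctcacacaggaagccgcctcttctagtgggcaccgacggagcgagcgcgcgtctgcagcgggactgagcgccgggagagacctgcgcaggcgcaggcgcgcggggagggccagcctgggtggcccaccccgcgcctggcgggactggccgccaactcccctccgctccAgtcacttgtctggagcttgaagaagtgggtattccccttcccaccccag
Motifs were searched on both strands of 9 such windows, found for 8 of the 10 genes (CD276 has 2, and PDCD1LG2 and CD70 were not matched). The AP-1 motif TGANTCA, held by 7.71% of 35116 promoters, and the E-box CACGTG, held by 7.26%, were in none of the 9. The loose NF-kB motif (GGG, any 5 bases, CC) was in all 9, as in 58.7% of all promoters. The ACGTG motif, which overlaps the E-box and is held by 21.4%, was in CD47 and 1 window of CD276, and the ETS motif CCGGAAG, held by 10.3%, in 1 window of CD276. A match describes these letters only, and the absence of a match is limited to this window.

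NECTIN2 (CD112, chromosome 19, 44846175 to 44889223, plus strand), the ligand of PVRIG, TIGIT and DNAM-1, differed from PVR in direction. It was at 80.7, 69.0 and 76.0 CPM in DMSO and 122.6, 101 and 99.9 in MAPKi, with no overlap (0.52, SE 0.09, adjusted p = 4.16e-04). In CTRL medium it was at 98.4, 61.5 and 55.1 CPM and in Gln-depleted cells at 64.6, 50.2 and 48.7. These groups overlapped (-0.39, SE 0.26, adjusted p = 0.319, and 0.0527 with the replicate block). In a fit of all 12 libraries, which takes the spread from both experiments, its MAPKi difference was 0.53 (SE 0.21) with an adjusted p of 0.0535. A lncRNA on the opposite strand shares 128 of its exon bases, and the strand setting of the counting is not given in the sources used here.

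CD70 (chromosome 19, 6583183 to 6604103, minus strand) is the ligand of the costimulatory receptor CD27. It was at 36.6, 34.9 and 31.6 CPM in DMSO and 48.4, 41.3 and 44.9 in MAPKi, a small rise with no overlap (0.39, SE 0.07, adjusted p = 9.10e-04). The rise did not pass in the fit of all 12 libraries, which takes the spread from both experiments (0.40, SE 0.19, adjusted p = 0.104). In CTRL medium it was at 45.3, 27.2 and 34.9 CPM and in Gln-depleted cells at 20.7, 14.2 and 19.7, lower with no overlap (-0.98, SE 0.25, adjusted p = 0.0345). The ratio within replicate numbers was 0.457, 0.523 and 0.564, and with the replicate block CD70 was at -0.96 (adjusted p = 0.00119) and downregulated past 1.5-fold (adjusted p = 0.0221). Without CTRL medium replicate 1 or 3, or Gln-depleted replicate 2 or 3, the call was lost (adjusted p from 0.0674 to 0.128).

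B2M (chromosome 15, 44711358 to 44718851, plus strand) was at 49.4, 31.6 and 34.0 CPM in DMSO and 73.3, 84.4 and 63.6 in MAPKi. All MAPKi libraries were above all DMSO libraries (0.94, SE 0.16, adjusted p = 4.64e-04), a rise of 1.92-fold. Without DMSO replicate 2, DMSO replicate 3 or MAPKi replicate 2 it no longer passed 1.5-fold (adjusted p from 0.0744 to 0.0785). It was at 50.6, 54.7 and 32.2 CPM in CTRL medium and 38.7, 53.2 and 32.7 in Gln-depleted cells, which overlap (-0.14, SE 0.27, adjusted p = 0.750, 95% interval -0.76 to 0.48). The table also lists a further copy of B2M with 1057 reads in all, against 21243 on the gene. With the copy added, the differences were 0.96 (adjusted p = 7.67e-04) and -0.18 (adjusted p = 0.696).

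**Figure D3:**
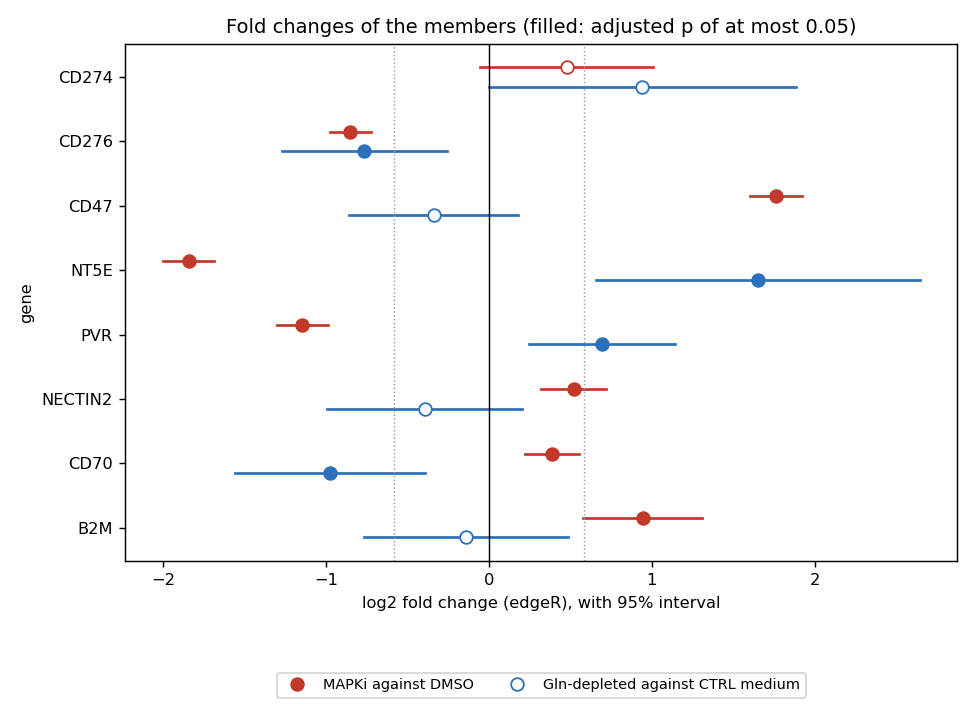
Log2 fold change of each tested gene in both experiments (points) with its 95% interval (lines), filled where the adjusted p was at most 0.05, with dotted lines at a 1.5-fold change in either direction. CD276 lies left of 0 in both experiments, whereas NT5E, PVR and CD70, also called in both, lie on opposite sides.

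The start regions of CD274 and B2M are shown because they hold letters that match the motif of interferon regulatory factors (IRF), through which both genes are known to respond to interferon-gamma. The IRF motif (GAAA, any 2 bases, GAAA) was in 2 of the 9 windows, these 2, and in 3.57% of all promoters. Both windows held 2 overlapping matches, on the minus strand of CD274 at positions -208 and -202 from the start and on the plus strand of B2M at -144 and -138. The GAS motif TTCNNNGAA, the gamma-interferon activated site, was in CD274 alone of the 9 windows, at -125, and in 7.66% of all promoters. The sequences are from RefSeq (GRCh38.p14), plus strand, CD274 at chr9:5450292-5450591 and B2M at chr15:44711267-44711566, with the matches in capitals.
CD274: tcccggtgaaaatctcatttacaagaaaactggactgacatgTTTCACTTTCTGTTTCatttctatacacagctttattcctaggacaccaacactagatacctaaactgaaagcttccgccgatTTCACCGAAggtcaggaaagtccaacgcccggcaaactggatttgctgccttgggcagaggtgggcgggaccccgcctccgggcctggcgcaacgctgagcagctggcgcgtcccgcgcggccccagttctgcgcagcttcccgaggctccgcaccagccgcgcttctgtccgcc
B2M: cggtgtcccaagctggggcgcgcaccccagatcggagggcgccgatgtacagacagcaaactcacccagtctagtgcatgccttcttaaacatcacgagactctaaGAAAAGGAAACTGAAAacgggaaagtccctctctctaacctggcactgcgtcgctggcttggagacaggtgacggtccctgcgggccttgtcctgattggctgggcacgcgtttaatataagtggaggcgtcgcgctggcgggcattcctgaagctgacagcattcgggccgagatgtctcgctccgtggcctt

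The difference between the experiments was tested over all 12 libraries as the MAPKi effect minus the Gln depletion effect. It passed for 6 of the 8 tested genes, where 40.3% of 12627 genes passed. It was positive for CD47 (2.15, SE 0.23, adjusted p = 3.12e-05), CD70 (1.41, SE 0.27, adjusted p = 0.00152), B2M (1.14, SE 0.35, adjusted p = 0.0225) and NECTIN2 (0.97, SE 0.30, adjusted p = 0.0220). It was negative for NT5E (-3.44, SE 0.50, adjusted p = 2.35e-04) and PVR (-1.79, SE 0.19, adjusted p = 2.83e-05). It was not called for CD276, or for CD274 (-0.42, SE 0.48, 95% interval -1.46 to 0.63). Each experiment has its own controls, but experiment and sequencing batch coincide and cannot be told apart.

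**Figure D4:**
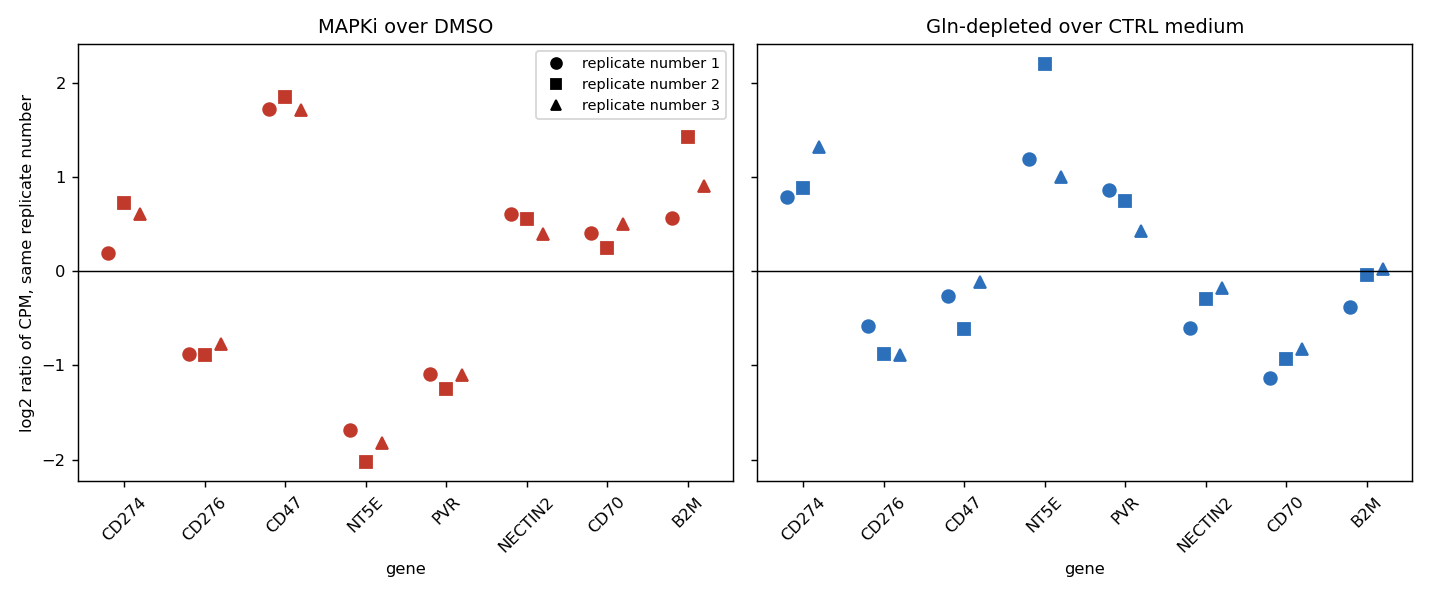
Log2 ratio of treated to control CPM for libraries with the same replicate number (circle 1, square 2, triangle 3), MAPKi over DMSO on the left and Gln-depleted over CTRL medium on the right. CD276 is below 0 in all 6 pairs, CD274 above 0 in all 6, and replicate 2 of NT5E under Gln depletion lies above its other pairs. The MAPKi pairs are matched by number only, and for CD274 the highest DMSO library lay above the lowest MAPKi library.

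Receptors of these ligands, which belong on immune cells, were mostly at or near 0 reads. PDCD1 (PD-1) and SIRPG had 0 reads in every library and CD226 had 5 to 36. Of the 14 receptor genes, 6 were tested in the MAPKi experiment, where 77.9% of all genes changed. SELPLG, SIRPA and TIGIT were higher (SELPLG at 2.70 and TIGIT at 1.21 on the log2 scale) and CD96 was lower. TIGIT was low, at 1.27 to 3.36 CPM in DMSO and 4.04 to 7.17 in MAPKi. CD96, a receptor of PVR, was at 56.4, 58.0 and 55.3 CPM in DMSO and 16.9, 17.5 and 15.3 in MAPKi, with no overlap (-1.77, SE 0.06, adjusted p = 8.38e-09). In the Gln depletion experiment CD96 was at 53.7, 70.6 and 59.3 CPM in CTRL medium and 66.1, 96.7 and 89.3 in Gln-depleted cells, which overlap (0.46, adjusted p = 0.171, and 0.45 with an adjusted p of 0.0180 with the replicate block). Of 7 receptors tested there, SIRPA alone was called, and with the block 2 were higher and 1 lower. The 9 leukocyte markers summed to 0.754 to 2.14 CPM over all libraries, and 4 of the 9 had 0 reads in each group. CD3E had 0 reads in every library, and PTPRC (CD45), which all leukocytes carry, had 0 to 17. LYZ had 25 to 62 and was the 1 marker tested, without passing in either experiment (adjusted p = 0.0574 after MAPKi and 0.775 after Gln depletion, edgeR).

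Genes that govern PD-L1, CD47 and the interferon-gamma response were 18, all tested. After MAPKi, 8 were higher and 4 lower, with a median log2 fold change of 0.17 against 0.01 over all genes. Of all genes tested there, 77.9% changed, 39.1% higher and 38.9% lower. The largest rises were STAT3 (1.03, adjusted p = 2.15e-07), the interferon-gamma receptor chain IFNGR1 (0.70, adjusted p = 9.87e-05) and SOCS3 (0.66, adjusted p = 4.91e-05). The largest falls were QPCT (-3.20), IFNGR2 (-1.49) and THBS1 (-0.65), the last a secreted ligand of CD47. QPCT was counted at a mean of 21.8 normalized reads. CMTM6, which keeps PD-L1 on the surface, was at 131 ± 8.36 CPM in DMSO and 127 ± 9.64 in MAPKi (-0.05, adjusted p = 0.505). After Gln depletion 2 of the 18 were higher, THBS1 (1.40, adjusted p = 0.00929) and IFNGR1 (0.76, adjusted p = 0.0479), and SOCS3 was lower (-1.23, adjusted p = 0.0387). With the replicate block these counts were 7 higher and 4 lower.

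MHC class I presentation genes were 19, of which 10 were tested in each experiment. After MAPKi 7 were higher and 1 lower, with a median log2 fold change of 0.71, where 39.1% of all genes were higher and 38.9% lower. The largest rises were the peptide editor TAPBPL (1.95, adjusted p = 2.86e-07), at 4.42 ± 0.404 CPM in DMSO and 17.0 ± 2.22 in MAPKi, and the class I transactivator NLRC5 (1.43, adjusted p = 5.46e-08), at 9.13 ± 0.526 and 24.6 ± 0.516 CPM. The 1 lower gene, TAPBP, had 305 reads in DMSO replicate 3 and at most 6 in each of the other 5 libraries, so its call rests on 1 library. Most reads on the HLA genes lay on further copies of the same gene in the table, 99078 against 2 for HLA-C and 34682 against 91 for HLA-B. With the copies added to their gene, a choice made after the data were seen, HLA-C was at 6643 to 7161 reads in DMSO and 9971 to 12854 in MAPKi (0.73, SE 0.08, adjusted p = 4.93e-05), and HLA-B was higher by 0.83 (SE 0.13, adjusted p = 4.42e-04). Reads shared between such copies may be split or counted more than once, so these levels are uncertain. In that setting 10 of 16 tested genes of the list were higher, 0 lower, and TAPBP was at 0.03.

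After Gln depletion, the aminopeptidase ERAP1 was the 1 higher presentation gene (0.86, adjusted p = 0.0405) and CALR, the chaperone calreticulin, the 1 lower, at 1594 ± 239 CPM in CTRL medium and 743 ± 134 in Gln-depleted cells (-1.10, adjusted p = 0.0116). With the replicate block the counts were 1 higher and 3 lower. With copies added, the chaperone CANX (calnexin), which had 84753 reads on its copy and 1265 on the gene, was higher too (0.84, adjusted p = 0.0244), which made 2 higher and 1 lower of 18. HLA-C with its copies added was at 0.01 (SE 0.23, 95% interval -0.51 to 0.53) and HLA-B at 0.34 (SE 0.23, adjusted p = 0.332).

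Among 18 other nectins and ligands of NK cells or adhesion, 10 were tested. After MAPKi 2 were higher and 6 lower (median -0.33), and these 8 of 10 lie close to the 77.9% of all genes that changed. The rises were ULBP2, a ligand of the NK receptor NKG2D (0.63, adjusted p = 8.30e-04), and CD58, the ligand of CD2 (0.38, adjusted p = 0.00931). The largest falls were RAET1E (-1.70, adjusted p = 0.00633), the adhesion molecule ICAM1 (-0.75, adjusted p = 1.14e-05) and NECTIN1 (-0.71, adjusted p = 2.16e-04). ICAM1 was at 191 ± 14.9 CPM in DMSO and 113 ± 9.73 in MAPKi. MICA and MICB, ligands of NKG2D whose reads lie almost wholly on copies, were lower with the copies added (-0.49, adjusted p = 0.00137, and -0.95, adjusted p = 0.00157), which made 2 higher and 8 lower of 12. After Gln depletion RAET1L alone passed (adjusted p = 0.0255), with 40, 18 and 3 reads in Gln-depleted libraries and 0 in every CTRL medium library. With the replicate block 3 were higher, CD58 (0.78, adjusted p = 0.0130) and NECTIN3 (0.69, adjusted p = 0.00272) besides RAET1L, and ICAM1 was lower (-0.58, adjusted p = 0.00676).

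The adenosine pathway, in which NT5E acts, held 14 other genes, and 8 were tested. After MAPKi 6 were lower and 0 higher (median -0.47), where 77.9% of all genes changed and 38.9% were lower. The falls were led by the nucleoside transporters SLC29A1 (-0.95, adjusted p = 1.10e-05) and SLC29A2 (-0.66, adjusted p = 4.50e-05) and by ENPP1 (-0.48, adjusted p = 2.95e-04), an enzyme that releases AMP from ATP. After Gln depletion, where NT5E rose, 3 of the others were lower and 0 higher, and with the replicate block ADA, adenosine deaminase, was lower too (-0.64, adjusted p = 0.0172). SLC29A2 was at 40.1 ± 5.07 CPM in CTRL medium and 8.78 ± 1.41 in Gln-depleted cells (-2.19, adjusted p = 0.00131), and ENPP1 and SLC29A1 were both at -1.34 (adjusted p = 0.00543 and 0.00466). ENTPD1 (CD39), the enzyme before NT5E in the extracellular route, was low in every group, with 10 to 65 reads per library, and did not pass in either experiment (-0.57, adjusted p = 0.189, and -0.30, adjusted p = 0.648).

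Of 21 other checkpoint and costimulatory ligands, 11 were tested in the MAPKi experiment, with 3 higher and 4 lower. Of all genes tested in it, 39.1% were higher and 38.9% lower. TNFRSF14 (HVEM), the ligand of BTLA, was the largest rise (2.53, adjusted p = 0.00438) but at low and uneven levels, 7 to 33 reads in DMSO and 48 to 180 in MAPKi. LGALS3 (galectin-3) was higher at 488 ± 10.9 CPM in DMSO and 829 ± 11.6 in MAPKi (0.77, adjusted p = 1.55e-07), and NCR3LG1 (B7-H6), the ligand of the NK receptor NKp30, by 0.75 (adjusted p = 2.06e-06). CEACAM1 was the largest fall, at 83 to 86 reads in DMSO and 0 to 4 in MAPKi (-5.33, adjusted p = 6.63e-06), followed by the butyrophilins BTN3A2 (-1.26) and BTN2A2 (-1.06). After Gln depletion 12 were tested, and the 4 genes called were all butyrophilins and all lower: BTN3A2 (-2.05, adjusted p = 0.00324), BTN3A3 (-1.74, adjusted p = 0.0319), BTN2A2 (-1.39, adjusted p = 0.0160) and BTN3A1 (-1.26, adjusted p = 0.0234). BTN3A proteins take part in the sensing of phosphoantigens by gamma-delta T cells. With the block 6 were lower, TNFRSF14 and LGALS3 besides these 4.

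**Figure D5:**
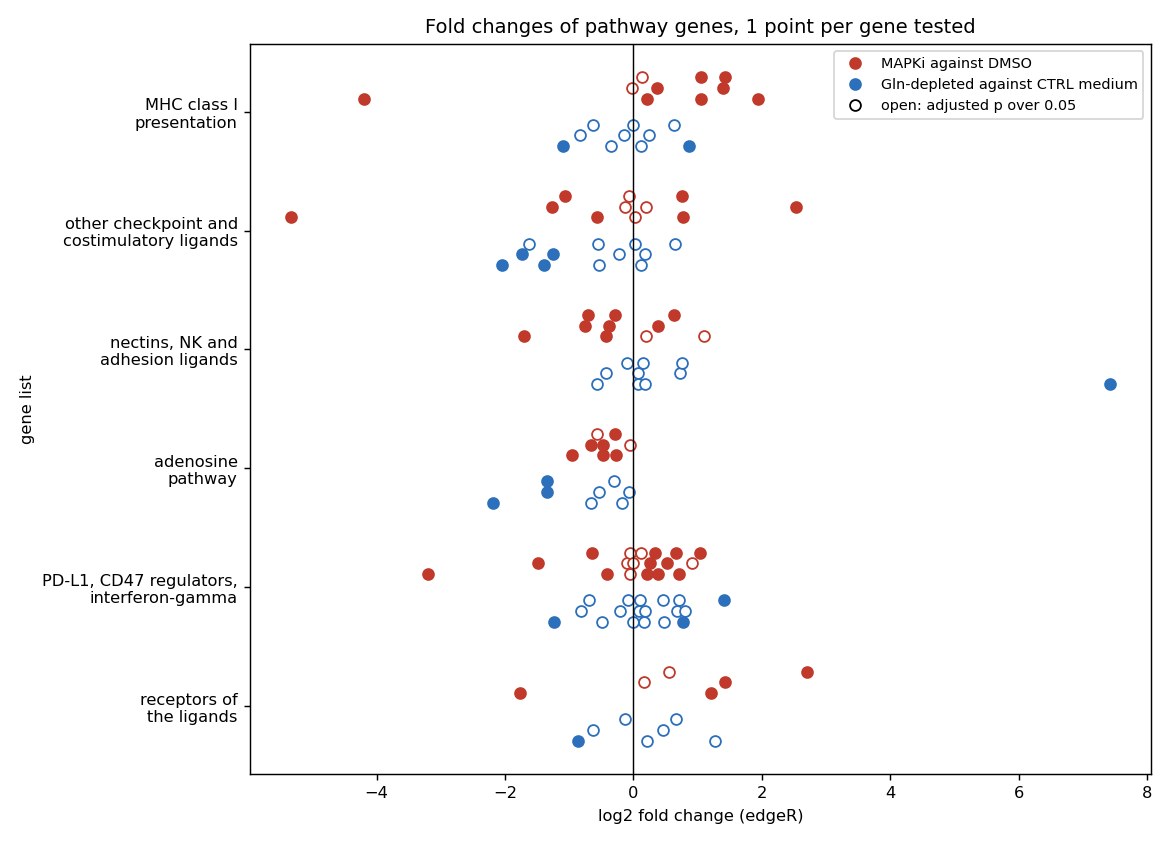
Log2 fold change of each tested gene of 6 lists around the members, MAPKi against DMSO in red and Gln-depleted against CTRL medium in blue, with open circles where the adjusted p was over 0.05. Presentation genes lie mostly to the right after MAPKi, with TAPBP at -4.19 as the exception, and the adenosine genes called lie left of 0 in both experiments; the point at 7.41 is RAET1L, with 0 reads in every CTRL medium library.

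Both treatments were visible in genes that respond to them. The 10 MAPK targets were all lower after MAPKi (median -4.86), and 5 were higher and 0 lower after Gln depletion (median 0.78, with 10 higher under the replicate block). The 9 genes of the amino acid response were all higher after Gln depletion (median 2.64), and 2 were higher and 7 lower after MAPKi. Markers of the melanocyte lineage summed to 1341 to 1411 CPM in DMSO and 8660 to 11150 in MAPKi, with 6 of 7 higher and S100B lower, and to 984 to 1223 in CTRL medium and 651 to 736 in Gln-depleted cells, where MITF was the 1 lower of 6 tested (4 of 6 with the block). Their part in the members' differences was not tested. Markers of keratinocytes, endothelium and fibroblasts summed to at most 27.6 CPM per list in any library.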

How the data were processed

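Raw counts of reads on exons were deposited by the authors for 44659 genes in 12 libraries, from rRNA-depleted libraries. The submitters' processing notes name fastp 0.20.1, HISAT2 2.2.1 and HTSeq 0.13.5, on GRCh38. All columns were used. The members and gene lists were chosen with earlier results of these data known. Named genes are all members, up to 3 largest rises and falls per list and experiment among genes called, and 3 genes per member most like it, less a few that are not reported here. Some others were named after their values were seen (among them ADA, CANX, CD226, MICA, MICB, CMTM6, ENTPD1, QPCTL and CD96 in Gln depletion).

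The count test was edgeR 4.0.16 under R 4.3.3 (TMM factors, quasi-likelihood, treatment as the only term), fitted per experiment to protein-coding genes whose normalized counts averaged 10 or more, against no change and, with glmTreat, against 1.5-fold, with Benjamini-Hochberg adjustment. The difference between experiments was a contrast over 12 libraries. Lists were counted, not tested. Symbols matched RefSeq genes for 36524 of 44659 genes, 513 by an older symbol, while 5082 further copies were kept apart and 2540 were not matched. The scripts were tested on simulated data. Same-numbered libraries of the Gln depletion experiment correlated in their deviations from the group mean at 0.66, 0.55 and 0.43. There the numbers were taken to pair them. In the MAPKi experiment the values were 0.12, 0.03 and 0.04, too low to tell whether the numbers pair the libraries. Alternatives were DESeq2 1.42.0, its size factors, other count limits, all genes of the table, a fit of 12 libraries, the replicate block, the experimental batch, a threshold of 1 and each library left out. Depth was 31056296 to 40071368 reads.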

Additional observations from a re-analysis of the deposited data

Results flagged for a closer look

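For 6 genes the MAPKi effect differed from the Gln depletion effect, by the test of that difference over 12 libraries. On the log2 scale, MAPKi minus Gln depletion was 2.15 for CD47, 1.41 for CD70, 1.14 for B2M and 0.965 for NECTIN2, and it was -3.44 for NT5E and -1.79 for PVR. Both effects passed their own test, in opposite directions, for NT5E, PVR and CD70. With a library left out, CD47, CD70, NT5E and PVR kept the call in all 12 fits, whereas NECTIN2 lost it in 4 (0.65 to 1.13, adjusted p from 0.00877 to 0.0618) and B2M in 5 (0.98 to 1.36, adjusted p from 0.00716 to 0.0592). These fits had no replicate block. Over all 12 libraries with the block, NECTIN2 was at 0.93 (adjusted p = 6.19e-04) and B2M at 1.15 (adjusted p = 0.0028). Groups of 3 libraries were too small to look for single outlying libraries by rule.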

How the results depend on the processing

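Of the members' fold changes, 108 of 111 alternative values kept their direction and their side of the threshold in the MAPKi experiment, 103 of 127 in the Gln depletion experiment and 131 of 144 for the difference. Reversals were within error of 0: B2M after Gln depletion without a library (-0.36 to 0.00575), and CD276 in the difference without a library (-0.16 to 0.173, above 0 in 4 fits at 0.0123, 0.0225, 0.00093 and 0.173). After MAPKi, 9815 genes changed, 4472 passed 1.5-fold and 2301 passed a log2 threshold of 1. In a fit of all 12 libraries 6260 changed and 3029 passed 1.5-fold. That fit gave 2 members higher and 3 past 1.5-fold, and the threshold of 1 gave 3 members. With a library left out, 9350 to 9618 genes changed and 4 to 5 members were higher.

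After Gln depletion 2211 genes changed and 679 passed 1.5-fold. With the replicate block these were 6066 and 2051, with the experimental batch as a term 5556 and 1886, in experimental batch 2 only 4360 and 1378, and in the fit of 12 libraries 5190 and 1667, while 259 passed a threshold of 1. With a library left out, 736 to 2750 changed and 268 to 901 passed. Members higher or lower were then 0 to 2 each, and 0 passed 1.5-fold. The lowest counts came without Gln-depleted replicate 2. Members past 1.5-fold were 2 with the block, 2 in the fit of 12 libraries and 1 with the batch as a term, and 1 member was lower with genes of at least 2 reads, all genes of the table, or copies added, the last chosen after the data were seen. In the difference, 5088 genes passed, or 7658 with the block, and 2 to 4 members were higher with a library left out. In the MAPKi experiment, where it is not known whether the numbers pair libraries, the replicate block gave 10045 genes and changed no member's call. In the Gln depletion experiment it added CD274 and changed no other member's call against no change. DESeq2 called as many members changed as edgeR in each experiment, but put 4 rather than 5 past 1.5-fold after MAPKi, without B2M. Of all genes it put 3765 past 1.5-fold there, against 4472 by edgeR. PDCD1LG2 and VSIR were below the count limit of the main fits. With genes of at least 2 reads, PDCD1LG2 was tested by edgeR and did not pass. Its log2 fold change was -0.33 after MAPKi (adjusted p = 0.763) and 1.51 after Gln depletion (adjusted p = 0.418). VSIR remained untested. The cause of these changes was not tested.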

Other observations

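For each tested member, genes with the most similar pattern were sought among 10740 genes, by Pearson's r of log2 CPM over 12 libraries after centring each experiment. These are descriptions: the libraries share 2 treatments, so a gene with 2 similar treatment effects ranks high. CD47 was most like PPP2R2B (r = 0.996), NAV3 (0.991) and the melanin enzyme DCT (0.990), which are all higher after MAPKi (2.81, 2.87 and 5.29). PVR was most like GPAT3 (0.985), the cyclin CCND1 (0.982) and the transcription factor GATA6 (0.981), and CCND1 was at -2.87 after MAPKi and 1.95 after Gln depletion. NT5E was most like the lymphatic transcription factor PROX1 (0.989), NEMP1 (0.985) and DEPDC7 (0.982).

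CD276 was most like TSPAN14 (0.993), GEMIN4 (0.992) and the replicative helicase subunit MCM4 (0.990), which was at -1.69 after MAPKi and -1.52 after Gln depletion. NECTIN2 was most like the receptor ERBB2 (0.979), CNTNAP1 (0.965) and PTPRS (0.964), and CD70 like UCKL1 (0.984), TNIP1 (0.975) and POMGNT1 (0.975). The likeness was lower for CD274, with CAV2 (0.957), TMEM209 (0.931) and HRH1 (0.918), and for B2M, with KLHL7 (0.905) and SIRT5 (0.900).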
